A study of Mus musculus with 6 samples.

Results

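The probes described here are the 32 oligonucleotides of a microRNA array whose names start with uc., the prefix for ultraconserved regions of the genome. They were chosen by name alone out of 2990 probes in the deposited table, with no use of their signal. They cover 16 elements (uc.1, uc.10 and uc.100 to uc.113), each with a probe ending in + and a probe ending in +A, suffixes that the labels do not define. The 2 probes that carry the name of 1 element were tested and counted separately, although they may not be independent of each other. The uc. rows stand last in the table in alphabetical order, and whether the array held further uc. probes is not known, so counts and shares below are of the probes listed.

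Ultraconserved regions are stretches of DNA that are identical in human, mouse and rat, a degree of conservation that coding for protein does not account for. Many lie in or near genes for RNA processing and for developmental transcription factors, and some act as enhancers. A part of them is transcribed into long RNAs, known as transcribed ultraconserved regions, whose levels differ between tissues and are altered in human leukaemias and carcinomas. Some custom arrays carry probes for them beside those for miRNAs, as this one does.

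RNA came from bone marrow hematopoietic stem and progenitor cells (HSPCs, lineage-negative and cKit-positive) of C57BL/6 females aged 10 weeks. The cKO mice (n = 3) had the genotype written as Rprtf/f, Mx1-Cre+ and the Ctrl littermates (n = 3) had Rprtf/f, Mx1-Cre-, so both groups carried the floxed alleles of Raptor, the defining scaffold protein of the growth-regulating kinase complex mTORC1. All 6 mice received 7 injections of 400 µg polyinosinic:polycytidylic acid (pIpC), and cells were taken 10 days after the last. Mx1-Cre is switched on by interferon and is active in liver and other tissues as well as in blood cells, pIpC itself raises interferon in both groups, and lineage-negative cKit-positive cells are a mixture of stem cells and committed progenitors. Each array was hybridised with 5 µg of total RNA labelled by reverse transcription from random octamers. The uc. probes were examined for signal over random sequence in these cells and for differences between cKO and Ctrl. In bulk RNA, fewer cells of a type and less RNA per cell cannot be told apart. The deletion was not checked here with any probe for Raptor.

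Values are relative intensities as deposited, on a linear scale with no unit, and they include the background. On every array 38 probes named Randomer, read here as random-sequence controls, marked that background, and a probe was counted as giving signal on an array when it exceeded the 95th percentile of these controls there. That level was 0.431, 0.406 and 0.377 on cKO arrays 1 to 3 and 0.423, 0.463 and 0.445 on Ctrl arrays 1 to 3. The mean log2 value of the Randomer probes differed between cKO and Ctrl by -0.04 (exact permutation p = 0.5, two-sided, n = 3 each, smallest possible p = 0.1). Of the 38, Randomer 120 exceeded the level on all 6 arrays, so a random sequence can pass this rule. Intensities of different probes depend on how well each probe binds, so a higher reading on 1 probe than on another is not read as more RNA.

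The cell label was checked with marker miRNAs. Of 4 blood cell markers, miR-223 and miR-130a exceeded the level on all 6 arrays, miR-142-3p on 2 cKO arrays and no Ctrl array, and miR-126-3p on 1 cKO array and no Ctrl array. Their summed intensity lay between 23.5 and 41.2 in cKO, against 16.9 and 18.2 in Ctrl, nearly all of it from miR-223 (20.7 to 38.2 in cKO, 15.1 to 16.4 in Ctrl). On all 6 arrays, 0 of 2 late erythroid, 1 of 1 mature lymphoid (miR-150), 0 of 1 liver, 0 of 3 muscle and 1 of 2 brain (miR-9) markers exceeded it. Some did so on fewer arrays: erythroid miR-144 on 3 cKO and 2 Ctrl arrays, and erythroid miR-451 and liver miR-122 on 2 of each group. Muscle miR-133a did so on 1 array of each group, and muscle miR-133b and brain miR-124 on 1 cKO array each. The summed intensity of the erythroid markers lay between 0.859 and 1.04 in cKO, against 0.968 and 1.64 in Ctrl, and that of miR-150 between 0.673 and 0.905 in cKO, against 0.482 and 0.609 in Ctrl. The part of other cells in the values below was not tested.

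Signal over random sequence was found for 6 of the 32 uc. probes on all 6 arrays, or 18.8%. The same was true of 38.4% of all 2952 probes tested and of 2.63% of the Randomer probes. The last share is bounded by the rule itself, since the level puts 2 of the 38 Randomer probes above it on every array. The 6 were uc.1+, uc.10+, uc.106+, uc.106+A, uc.110+ and uc.111+, from 5 of the 16 elements. Averaged over the 6 arrays, Randomer 120 read 1.87 times the level. That was above uc.1+ (1.66), uc.111+, uc.110+ and uc.106+A (1.27), and below uc.10+ (2.64) and uc.106+ (2.29). Only uc.106+ exceeded the highest Randomer probe on every array. Another 13 uc. probes exceeded the level on 1 to 5 arrays, and 13 on none. Those on none were 40.6% of the 32, against 32.2% of all probes tested. Of the 16 probes ending in +, 5 gave signal on all arrays and 4 on none, and of the 16 ending in +A, 1 gave signal on all arrays and 9 on none. On single arrays 13, 9 and 17 of the 32 exceeded the level in cKO and 12, 9 and 8 in Ctrl, so the groups overlapped. Over all probes tested the shares were 56.5%, 55.4% and 60.7% in cKO and 49.3%, 49.3% and 43.0% in Ctrl, without overlap. The array with 17, cKO array 3, also had the lowest level.

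All uc. signals were dim. With each array multiplied by a constant that puts its highest value at the scanner limit of 65535, they spanned 255 to 1375.5 scanner units. On that scale the Randomer level lay between 355 and 401 units. The deposited intensities of the 32 probes had a median of 0.385 over the cKO arrays and 0.396 over the Ctrl arrays. The 13 probes never above the level reached 0.405 at most in cKO and 0.410 at most in Ctrl.

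No uc. probe passed the comparison of cKO with Ctrl (0 of 32; limma, Benjamini-Hochberg adjusted over all 2952 probes), against 4.10% of all probes tested. Over all probes 115, or 3.90%, were higher in cKO and 6, or 0.203%, were lower. The total of 121 was 51 without cKO replicate 2, it was 35, 58 and 43 without Ctrl replicates 1, 2 and 3, and it was 228 without cKO replicate 3, where 3 uc. probes passed. At an unadjusted p under 0.05 there were 3 of 32 uc. probes (uc.10+ and uc.10+A higher, uc.108+ lower), or 9.38%, against 14.9% of all probes. The cKO and Ctrl arrays did not overlap for 1 uc. probe on the higher side (uc.10+), where 13.7% of all probes did so, and for 2 on the lower side (uc.102+ and uc.108+), where 4.37% did so. The median log2 difference over the 32 was -0.01, with 15 differences above 0 and 17 below, against 0.03 over all probes tested. Beside these shares those of the uc. probes were smaller, except on the lower side, where 2 probes are 6.25% of the 32. The uc. shares rest on few probes, and whether they differ from those over all probes was not tested. Signal on all 6 arrays was also less frequent among the uc. probes (18.8% against 38.4%), so the 2 sets are not alike in signal.

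The probe with the largest difference was uc.10+. It read 1.29, 1.39 and 1.42 on the cKO arrays, against 0.892, 0.920 and 0.692 on the Ctrl arrays. All 6 values lay above the random-sequence level, by 2.98 to 3.76 times in cKO and 1.55 to 2.11 times in Ctrl, and every cKO array was above every Ctrl array. The means and SDs over 3 arrays were 1.37 ± 0.0712 in cKO and 0.835 ± 0.124 in Ctrl. The log2 difference was 0.72 ± 0.20 (SE), a 1.65-fold difference with a 95% interval of 1.22- to 2.23-fold, and it missed the threshold (limma adjusted p = 0.0759, unadjusted p = 0.00370).

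The difference of uc.10+ was above 0 in all 17 alternative analyses, and it passed the test in 5 of them. Those included the analyses without cKO replicate 3 (log2 difference 0.69, limma adjusted p = 0.0403), in scanner units (0.82, limma adjusted p = 0.0489), without an intensity trend in the variance (0.72, limma adjusted p = 0.0284) and with values under 1 raised to 1, which puts all 3 Ctrl arrays at the floor (0.45, limma adjusted p = 0.0147). In these 4 analyses 7.42%, 5.12%, 5.28% and 14.9% of the probes tested passed as higher. It did not pass after quantile normalization (0.43, limma adjusted p = 0.301), with snoRNA and GAPDH probes as the scale (0.14, limma adjusted p = 0.695), or without Ctrl replicate 3 (0.59, limma adjusted p = 0.383). With the mean of the Randomer probes subtracted from each array the difference was 2.22-fold, with an interval of 1.39- to 3.54-fold (limma adjusted p = 0.0697).

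The other probe of that element, uc.10+A, read 0.525, 0.402 and 0.559 in cKO and 0.417, 0.396 and 0.371 in Ctrl. It lay above the level on 2 cKO arrays and on no Ctrl array, and the groups overlapped through cKO array 2. Measured means and SDs were 0.495 ± 0.0827 in cKO and 0.394 ± 0.0231 in Ctrl, a 1.24-fold difference with an interval of 1.01- to 1.53-fold (limma adjusted p = 0.304). With the level put in place of the Ctrl values beneath it, the mean over the 3 cKO arrays was at least 1.11-fold higher. That figure leaves out the spread between arrays, and 1 of the 3 cKO values was itself under the level. On both uc.10 probes the highest value was on cKO array 3 and the lowest on Ctrl array 3.

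For uc.1+ the difference had the largest SE of the 32 probes. uc.1+ read 1.10, 0.786 and 0.540 on cKO arrays 1 to 3 and 0.653, 0.601 and 0.543 on Ctrl arrays 1 to 3, all above the level. uc.1+A read 0.694, 0.609 and 0.402 in cKO and 0.440, 0.478 and 0.405 in Ctrl, and it was under the level on Ctrl array 3 alone. On both probes cKO array 1 was highest and cKO array 3 lay under all 3 Ctrl arrays, so the groups overlapped. The log2 differences were 0.38 ± 0.23 for uc.1+ and 0.33 ± 0.18 for uc.1+A (SE; limma adjusted p = 0.522 and 0.466). Without cKO replicate 3 they were 0.64 and 0.56 and passed (limma adjusted p = 0.0403 and 0.0222). In that analysis 3 uc. probes were higher, or 9.38%, against 7.42% of all probes.

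The uc.106 probes gave signal on every array with no separation of the groups. uc.106+ read 0.816, 1.05 and 0.945 in cKO and 0.819, 0.987 and 1.19 in Ctrl, between 1.89 and 2.67 times the level. Its log2 difference of -0.08 ± 0.20 had an interval of 0.693- to 1.29-fold (limma adjusted p = 0.948). uc.106+A read 0.460, 0.488 and 0.779 in cKO and 0.444, 0.489 and 0.533 in Ctrl. Only cKO array 3 stood clear of the level, at 2.06 times it, while the other 5 lay between 1.05 and 1.20 times it. Its log2 difference was 0.20 ± 0.19 (limma adjusted p = 0.760).

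uc.110+ read 0.691, 0.658 and 0.531 in cKO and 0.454, 0.757 and 0.455 in Ctrl. Ctrl array 2 was the highest and the other Ctrl arrays the lowest of the 6, so the groups overlapped (log2 difference 0.21 ± 0.20, limma adjusted p = 0.769). Of the probes with signal on all 6 arrays, uc.110+ had the smallest margin on its lowest array, at 1.02 times the level on Ctrl array 3. Of the probes that missed signal on all arrays, uc.110+A came closest by its lowest array, at 0.980 times the level on the same array. It read 0.474, 0.441 and 0.405 in cKO and 0.503, 0.474 and 0.436 in Ctrl (log2 difference -0.10 ± 0.12, limma adjusted p = 0.831).

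uc.111+ read 0.582, 0.622 and 0.754 in cKO and 0.604, 0.656 and 0.578 in Ctrl, at 1.30 to 2.00 times the level. The groups overlapped and the log2 difference was 0.09 ± 0.15 (limma adjusted p = 0.893). Its partner uc.111+A stayed under the level on every array, at 0.638 to 0.825 times it. Within this element, signal over random sequence came from 1 of the 2 probes only.

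On the lower side, uc.108+ read 0.447, 0.383 and 0.346 in cKO and 0.508, 0.459 and 0.464 in Ctrl. Every cKO array was under every Ctrl array, but the probe exceeded the level on only 1 cKO and 2 Ctrl arrays. The log2 difference was -0.29 ± 0.12, a fold of 0.818 with an interval of 0.679 to 0.985 (limma adjusted p = 0.285). Its difference was below 0 in all 16 alternatives that tested it, and it passed in 1, with the snoRNA and GAPDH scale (-0.87, limma adjusted p = 0.0262). With that scale 16 of the 32 uc. probes passed the test as lower in cKO, against 40.2% of all probes, so uc.108+ moved there with much of the table.

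uc.102+ read 0.386, 0.402 and 0.387 in cKO and 0.432, 0.419 and 0.429 in Ctrl. The groups were separate because each was tight (SD 0.00849 in cKO and 0.00701 in Ctrl, n = 3 each), while the probe exceeded the level on 1 array of each group. The log2 difference was -0.12 ± 0.10 (limma adjusted p = 0.670). uc.100+, above the level on all 3 Ctrl arrays and 2 cKO arrays, read 0.572, 0.388 and 0.384 in cKO and 0.426, 0.546 and 0.449 in Ctrl. cKO array 1 was its highest value and the groups overlapped (log2 difference -0.10 ± 0.17, limma adjusted p = 0.886).

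Of the remaining probes above the level somewhere, uc.112+A did so on 2 cKO arrays and 1 Ctrl array and uc.112+ on 2 cKO arrays. uc.101+, uc.102+A, uc.103+, uc.104+A and uc.105+ did so on 1 cKO array each and on no Ctrl array. That was cKO array 1 for uc.105+ and, for the others, cKO array 3, whose level of 0.377 was the lowest. There uc.104+A counted at 0.381, but not at 0.414 on Ctrl array 2, where the level was 0.463. The log2 differences of these 7 probes ran from -0.07 for uc.112+A to 0.20 for uc.105+, and each had overlapping groups. Never above the level were uc.100+A, uc.101+A, uc.103+A, uc.104+, uc.105+A, uc.108+A, uc.111+A and both probes of uc.107, uc.109 and uc.113. Their log2 differences lay between -0.14 and 0.12. For these 13 probes no transcript was detectable over random sequence with these arrays.

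The precision of these differences depends on how background is treated. On the deposited scale the SE of the log2 difference was 0.09 to 0.23, and the 95% interval lay within 2-fold in either direction for 31 of the 32 probes, all but uc.10+, and within 1.5-fold for 26. These counts include the 13 probes never above the level, whose intervals describe background readings and set no bound on a transcript. Because the deposited values hold background, folds of dim probes are pulled towards 1. With the Randomer mean subtracted, of the 6 probes with signal on all arrays only uc.106+ had an interval within 2-fold (0.552 to 1.57). The intervals then ran from 0.757 to 4.09 for uc.1+, 0.436 to 5.08 for uc.106+A, 0.613 to 5.10 for uc.110+ and 0.574 to 2.39 for uc.111+. Each of those 4 intervals includes a 2-fold difference.

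The direction of the dim probes also followed the scale. In scanner units 29 of the 32 differences were above 0 and the median was 0.088, against 0.13 over all probes. With the snoRNA and GAPDH scale 31 were below 0 and the median was -0.59, against -0.55 over all probes. The snoRNA and GAPDH probes themselves were 0.58 higher in cKO on the log2 scale (exact permutation p = 0.1, the smallest possible with n = 3 each). They number 6, and 3 of them gave signal on all 6 arrays. The SD of their mean log2 value over the arrays was 0.29 in cKO and 0.08 in Ctrl. Either scale shifts the difference of every probe by 1 amount, so the distance of the uc. median from that of all probes stayed as on the deposited scale. uc.10+ was the only uc. probe above 0 with the snoRNA and GAPDH scale.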

How the data were processed

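Per the labels' protocols, total RNA isolated with TRIzol was labelled with biotin by reverse transcription and read through a streptavidin-Alexa647 conjugate on an Axon 4000B scanner. The deposited table holds linear intensity values of 2990 probes on 6 arrays. The constant of each array (829 to 987.5) was set here so that the highest deposited intensity equals the scanner limit of 65535. Multiplied by it, 99.98% of values are multiples of 0.25 within 0.01. For the image software, the background correction and any scaling, the authors' choices are not given in the sources at hand.

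The log2 of the intensity was tested with limma 3.58.1 in R 4.3.3 (intensity trend, two-sided, no floor, no further scaling) over 2952 probes, all but the Randomer rows, with an adjusted p under 0.05; the script was tested on simulated data. The titles give 1 mouse per array. The naming rule covers passing probes, probes with signal in all arrays or a whole group, the 5 smallest p, probes next to the level, and both probes of an element, hence all 32. Members and lists were chosen with earlier results of these data known. Alternatives changed scaling, background, filter, tested set, variance model, replicate block and single arrays. The number of arrays limits the precision. Probe sequences, positions and host genes were not used here.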

Additional observations from a re-analysis of the deposited data

How the results depend on the processing

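Of the 32 uc. probes 16 passed with snoRNA and GAPDH scaling (all lower), and 1 (uc.10+, higher) in scanner units, with the floor at 1, without an intensity trend and with the replicate block; leaving out 1 array gave 0 to 3. Over all probes 121 passed (115 higher, 6 lower), against 37 (30 higher, 7 lower) after quantile normalization, 1234 (47 higher, 1187 lower) with snoRNA and GAPDH scaling, 73 among mouse miRNA and uc. probes only, 191 with the replicate block and 35 (Ctrl replicate 1) to 228 (cKO replicate 3) without 1 array. The median uc. difference moved from -0.01 to -0.59 with snoRNA and GAPDH scaling, 0.088 in scanner units and 0.085 among the 11 uc. probes above the level on at least 3 arrays, and was -0.03 to 0.05 without 1 array. Signal on all 6 arrays was found for 6 uc. probes, against 1 (uc.106+) above the highest Randomer probe and 2 (uc.10+ and uc.106+) above the Randomer mean plus 2 SD. The count was 14 above the Randomer median, 5 above the pooled percentile and 6 to 8 without 1 array. Of all probes tested 38.4% gave such signal. With these levels in turn the share was 17.3%, 27.1%, 59.2% and 35.6%, and without 1 array 38.6% to 42.3%. No uc. probe passed with a sign opposite to that reported; signs of probes that did not pass turned for 14 of 32 with snoRNA and GAPDH scaling and for 14 in scanner units. The moves of the median with snoRNA and GAPDH scaling and in scanner units are a shift of every probe by the same amount. That to 0.085 comes from the choice of probes, whose single differences were unchanged. Why the scales differ between the groups, and the cause of the other changes, was not tested.

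The mouse numbers in the titles were not taken as pairs. Deviations from the group means correlated at 0.12, 0.07 and 0.17 for the same numbers and between -0.15 and 0.09 for different numbers. cKO 2 correlated best with Ctrl 1 (0.09). Whether the same numbers mark pairs is not known. With the replicate block uc.10+ had an adjusted p of 0.0488 in limma. With the floor at 1, probes at the floor on all arrays could not be fitted, which left 853 probes, 3 of them uc. probes.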
